A study of Mus musculus with 18 samples.

Results

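The ligands described here are 8 members of the tumour necrosis factor (TNF) superfamily in mouse bone marrow derived macrophages: Tnf, Tnfsf4, Tnfsf8, Tnfsf9, Tnfsf10, Tnfsf13b, Tnfsf14 and Tnfsf15. They were taken by gene symbol from the array's annotation, and they are 8 of the 22485 genes measured, carried by 17 of 44397 array features. Tnf had 10 features and each of the other 7 ligands had 1. The study set 18 two-colour arrays, each a treated sample (Cy5) against a reference of untreated macrophages (Cy3). The 5 groups were Nrf2-/- cells given heme-albumin and then LPS (5 arrays), Nrf2-/- cells given LPS (4 arrays), Nrf2+/+ cells given heme-albumin and then LPS (3 arrays), Nrf2+/+ cells given LPS (3 arrays), and Nrf2+/+ cells given albumin without heme (3 arrays). Heme-albumin was used at 200 µM for 4 h, LPS at 10 ng/ml for 4 h and albumin for 4 h. All cells came from the marrow of mice aged 8 to 10 weeks and were grown for 7 days with 10 ng/ml M-CSF, the growth factor that turns marrow cells into macrophages. Nrf2-/- cells, called the knockout below, lack NRF2, the transcription factor that switches on antioxidant and detoxification genes. The knockout had no group without LPS. The labels of the LPS groups name no albumin while the protocol mentions it. Between heme and LPS and LPS alone, the time in culture and the albumin may therefore differ too. Between LPS and albumin the albumin may differ as well, and between heme and LPS and albumin the time in culture.

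TNF superfamily ligands are membrane proteins of the cell surface, several of which are cut off by proteases and act at a distance. Each binds 1 or more receptors of the TNF receptor superfamily, which either recruit TRAF adaptors and switch on NF-kB and MAP kinases or, where they carry a death domain, can start caspase-dependent cell death. Macrophages are a main source of TNF after contact with LPS, the endotoxin of Gram-negative bacteria, which is sensed by TLR4. Heme is the iron-bearing group of hemoglobin, which macrophages take up when they clear red blood cells, and it is a strong inducer of NRF2 target genes.

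All values below are log2 ratios of a sample to the untreated reference, so that 1 unit is a 2-fold ratio, and a difference is that between 2 group means, with its standard error (SE) from limma. They compare a gene between groups and give no level of one gene against another. The call required an adjusted p under 0.05 over all 22485 genes (limma, Benjamini-Hochberg). Exact zeros, which read as a ratio of 1 but whose meaning is not given, made up 17.9% to 48.8% of an array's features. The 4 LPS-treated arrays lettered a had 44.3% to 48.8% of features at 0, and the arrays of a group correlated at r between 0.55 and 0.89 over genes. Of the 144 ligand values 5 were exactly 0: Tnfsf13b on 3 of the arrays lettered a, Tnfsf8 on wild-type heme and LPS array a, and Tnfsf4 on knockout heme and LPS array c. Nfe2l2, which encodes NRF2, was at exactly 0 on all 9 knockout arrays, which gives no knockout level to check, and averaged 0.64 ± 0.46 in wild-type cells under heme and LPS, -0.29 ± 0.40 under LPS and -0.07 ± 0.12 under albumin (SD, n = 3 each). Its target Nqo1, a quinone reductase, averaged 0.46 ± 0.47 in knockout cells under heme and LPS (SD, n = 5) and 3.18 ± 0.34 in wild-type cells under heme and LPS (SD, n = 3). In these whole cultures fewer cells that express a gene and less RNA of that gene per cell cannot be told apart. None of 9 macrophage markers was at 0 throughout a group, but a ratio to other macrophages does not show whether a marker is present.

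Against albumin, LPS raised 5 of the 8 ligands in wild-type cells: Tnf, Tnfsf4, Tnfsf8, Tnfsf10 and Tnfsf15. Here and below, raised or lowered by LPS means against albumin, which the LPS cells may not have had. None was called lower, while over all genes 12.3% were called higher and 16.3% lower. The median difference of the 8 ligands was 3.06, against 0 over all genes. The arrays of the LPS and albumin groups did not overlap for 7 of the 8 ligands, and for 47.2% of all genes.

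Tnf encodes TNF itself, the pyrogenic cytokine made early in the macrophage response to LPS. It stood at 4.79, 3.86 and 3.90 on the wild-type LPS arrays, against -0.54, -0.59 and -0.54 on the albumin arrays. The difference was 4.74 ± 0.21 (SE), a 26.7-fold rise, with an adjusted p of 7.63e-09 in limma. Its 10 features lay within 0.076 to 0.718 log2 units of one another on an array, with a median of 0.182. Tnfsf15 encodes TL1A, the ligand of death receptor DR3, which co-stimulates T cells and innate lymphoid cells. It stood at 5.63, 5.81 and 5.53 under LPS, against -1.12, -0.43 and -0.49 under albumin. The difference was 6.34 ± 0.35 (adjusted p = 3.49e-08 in limma), an 80.8-fold rise. Tnfsf10 encodes TRAIL, which triggers apoptosis through its death receptor and is a classical interferon-induced gene. It stood at 7.36, 6.21 and 6.04 under LPS, against 0.33, 0.45 and 0.28 under albumin. The difference was 6.18 ± 0.95 (adjusted p = 0.000205 in limma). For these 3 ligands every LPS array lay more than 4 units above every albumin array.

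Tnfsf8 encodes CD30 ligand. It stood at 1.46, 2.03 and 0.84 under LPS, against -1.60, -2.03 and -1.71 under albumin, a difference of 3.23 ± 0.62 (adjusted p = 0.00114 in limma). The albumin arrays thus lay below the untreated reference, with a mean of -1.78 ± 0.22 (SD, n = 3). The LPS arrays lay above it, with a mean of 1.45 ± 0.59 (SD, n = 3). The shares of albumin and of LPS in this difference were not tested. Tnfsf4 encodes OX40 ligand, which sustains T cell responses. It stood at 3.08, 4.45 and 2.28 under LPS, against 0.70, 0.69 and -0.27 under albumin, a difference of 2.90 ± 0.97 (adjusted p = 0.0371 in limma). The call was lost in 7 of 16 alternatives, among them the removal of any single albumin array or of LPS array a or b, with an adjusted p of up to 0.147. Tnfsf9 encodes the ligand of CD137, a co-stimulatory receptor of T cells. It stood at 4.69, 1.15 and 2.38 under LPS, against 0.27, 0.47 and 0.26 under albumin. The groups did not overlap, but the difference of 2.41 ± 0.86 missed the threshold (adjusted p = 0.0507 in limma) and passed it in 7 of 16 alternatives. It was 1.43 without LPS array a (0.236) and 3.20 without LPS array b (0.0161).

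Tnfsf14 encodes LIGHT, which binds the lymphotoxin beta receptor and HVEM. It stood at -1.73, -1.19 and -1.93 under LPS, against 0.04, -0.03 and 0.06 under albumin. Each LPS array was below each albumin array, and the difference of -1.64 ± 0.67 did not pass (adjusted p = 0.0848 in limma) but did in 4 of 16 alternatives. Tnfsf13b encodes BAFF, the survival factor of B cells. It stood at 0.00 (exactly 0), -1.10 and -0.48 under LPS, against 0.06, 0.24 and -0.14 under albumin, and the groups overlapped. Its difference was -0.58 ± 0.39 (adjusted p = 0.314 in limma).

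**Figure D1:**
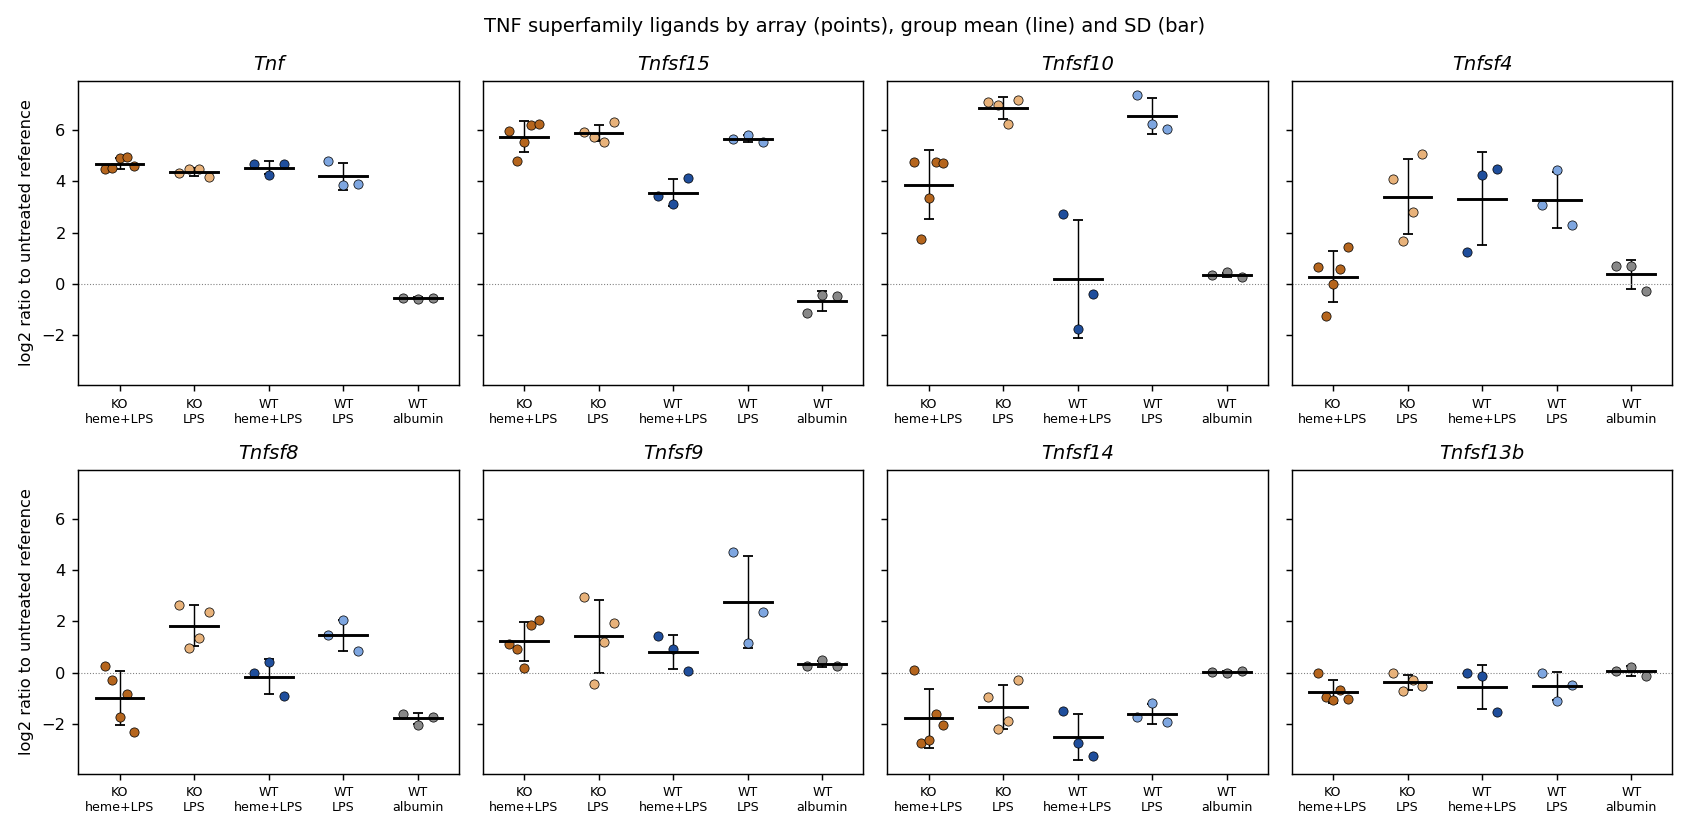
Log2 ratio to the untreated reference (y axis) for each of the 8 ligands on each of the 18 arrays (points), by group, with the group mean (line) and SD (bar). Tnf is at a like height in the 4 LPS-treated groups, whereas Tnfsf15 is lower in wild-type cells under heme and LPS than in the other 3 LPS-treated groups.

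The next comparison set heme before LPS against LPS alone. No group of either genotype was given heme without LPS. An effect of heme by itself and a changed response to LPS therefore cannot be told apart. Heme before LPS lowered Tnfsf10 and Tnfsf15 in wild-type cells, and no ligand was called higher. Over all genes 6.35% were called lower and 8.34% higher. Tnf, the best known ligand, did not pass in either direction. The wild-type LPS arrays serve both here and in the comparison with albumin, so the opposite signs of the 2 sets of differences are not independent of each other.

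Tnfsf10 stood at 2.71, -1.75 and -0.41 on the wild-type heme and LPS arrays, against 7.36, 6.21 and 6.04 on the LPS arrays. The difference was -6.35 ± 0.95, with an adjusted p of 0.000344 in limma, and ranged from -7.62 without heme array a to -5.39 without heme array b. All heme arrays lay below all LPS arrays, but they were spread over more than 4 units, and the array at 2.71 was array a, with 46.4% of its features at 0. When only these 2 groups entered the fit, the adjusted p was 0.0637. Under heme and LPS the mean of Tnfsf10 was 0.18 ± 2.29 (SD, n = 3), against 0.35 ± 0.08 with albumin alone (SD, n = 3), a difference of -0.17 with a 95% interval of -2.21 to 1.87. Tnfsf15 stood at 3.41, 3.12 and 4.14 under heme and LPS, against 5.63, 5.81 and 5.53 under LPS. The difference was -2.10 ± 0.35, 4.28-fold lower (adjusted p = 0.000883 in limma), and it passed in all 16 alternatives. Tnfsf15 remained above albumin under heme and LPS, by 4.24 ± 0.35 (adjusted p = 1.34e-06 in limma).

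Tnf stood at 4.66, 4.25 and 4.67 in wild-type cells under heme and LPS, against 4.79, 3.86 and 3.90 under LPS. The groups overlapped through LPS array a, and the difference was 0.34 with a 95% interval of -0.12 to 0.80 (adjusted p = 0.402 in limma). The size of this difference depended on the scaling and on that array. It was called higher after quantile normalization between arrays (1.12, adjusted p = 0.00818), with array weights (0.62, adjusted p = 0.00855) and without LPS array a (0.65, adjusted p = 0.0183), all in limma. In none of the 16 alternatives was Tnf called lower.

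Tnfsf4 did not move in one direction in wild-type cells under heme. It stood at 1.24, 4.24 and 4.47 under heme and LPS, against 3.08, 4.45 and 2.28 under LPS, a difference of 0.05 with a wide 95% interval of -2.04 to 2.14. Tnfsf8 was at 0.00 (exactly 0), 0.42 and -0.92 under heme and LPS, each below the 1.46, 2.03 and 0.84 under LPS. The difference of -1.61 ± 0.62 did not pass (adjusted p = 0.111 in limma). Tnfsf9 stood at 1.41, 0.91 and 0.07 under heme and LPS, against 4.69, 1.15 and 2.38 under LPS, with a difference of -1.94 ± 0.86 (adjusted p = 0.187 in limma). Tnfsf14 differed by -0.89 ± 0.67 (adjusted p = 0.523) and Tnfsf13b by -0.04 ± 0.39 (adjusted p = 1), both in limma. The median over the 8 ligands was -1.25, against 0 over all genes, and the arrays did not overlap for 3 of the 8 ligands and for 24.2% of genes.

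Against albumin, 3 ligands were higher in wild-type cells under heme and LPS, namely Tnf, Tnfsf4 and Tnfsf15, and 1 was lower, Tnfsf14. Over all genes 12.9% were higher and 14.4% lower. Tnf was 5.08 ± 0.21 higher (adjusted p = 3.41e-09 in limma). Tnfsf4 was 2.95 ± 0.97 higher (adjusted p = 0.0364 in limma), a call that was lost without heme array b or c and without any single albumin array. Tnfsf14 was -1.51, -2.73 and -3.26 under heme and LPS, against 0.04, -0.03 and 0.06 under albumin. The difference was -2.52 ± 0.67 (adjusted p = 0.0112 in limma), and without heme array c the adjusted p was 0.0527. The median over the 8 ligands was 1.04, and the arrays did not overlap for 5 of the 8 ligands and for 43.7% of genes.

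In the knockout, heme before LPS lowered Tnfsf4, Tnfsf8 and Tnfsf10, and no ligand was called higher. Over all genes 2.67% were called lower and 4.1% higher. Tnfsf15, lowered by heme in wild-type cells, stood at 5.94, 4.78, 5.52, 6.17 and 6.23 in the knockout under heme and LPS, against 5.91, 5.74, 5.53 and 6.29 under LPS. The groups overlapped, and the difference was -0.14 with a 95% interval of -0.76 to 0.49 (adjusted p = 0.933 in limma).

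Tnfsf10 stood at 4.76, 1.74, 3.35, 4.75 and 4.72 in the knockout under heme and LPS, against 7.09, 6.95, 6.24 and 7.18 under LPS. All 5 heme arrays were below all 4 LPS arrays, and the difference was -3.00 ± 0.78, 8.01-fold lower (adjusted p = 0.0327 in limma). The call was lost after quantile normalization, in a fit of these groups alone, and without heme array b or c or LPS array a, b or d, with an adjusted p of up to 0.0908 without a single array. Tnfsf4 stood at 0.66, -1.24, 0.00 (exactly 0), 0.56 and 1.45 under heme and LPS, against 4.07, 1.66, 2.81 and 5.05 under LPS. The groups did not overlap and the difference was -3.11 ± 0.80 (adjusted p = 0.0302 in limma). This call too was lost in 7 of 19 alternatives, among them the removal of heme array b, c or d or of LPS array a or d, with an adjusted p of up to 0.11. Tnfsf8 stood at 0.26, -0.28, -1.75, -0.82 and -2.31 under heme and LPS, against 2.62, 0.96, 1.35 and 2.37 under LPS. The groups did not overlap, the difference was -2.80 ± 0.51 (adjusted p = 0.00383 in limma), and the call was lost only in the fit of these groups alone, of 19 alternatives (adjusted p = 0.0534).

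Tnf stood at 4.46, 4.53, 4.89, 4.94 and 4.61 in the knockout under heme and LPS, against 4.33, 4.49, 4.47 and 4.15 under LPS. The difference was 0.33 with a 95% interval of -0.05 to 0.70 (adjusted p = 0.393 in limma). Tnfsf9, Tnfsf13b and Tnfsf14 differed by -0.20, -0.37 and -0.44 in limma and none of these was called. The median over the 8 ligands was -0.40, and the arrays did not overlap for 3 of 8 ligands and for 7.64% of genes.

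**Figure D2:**
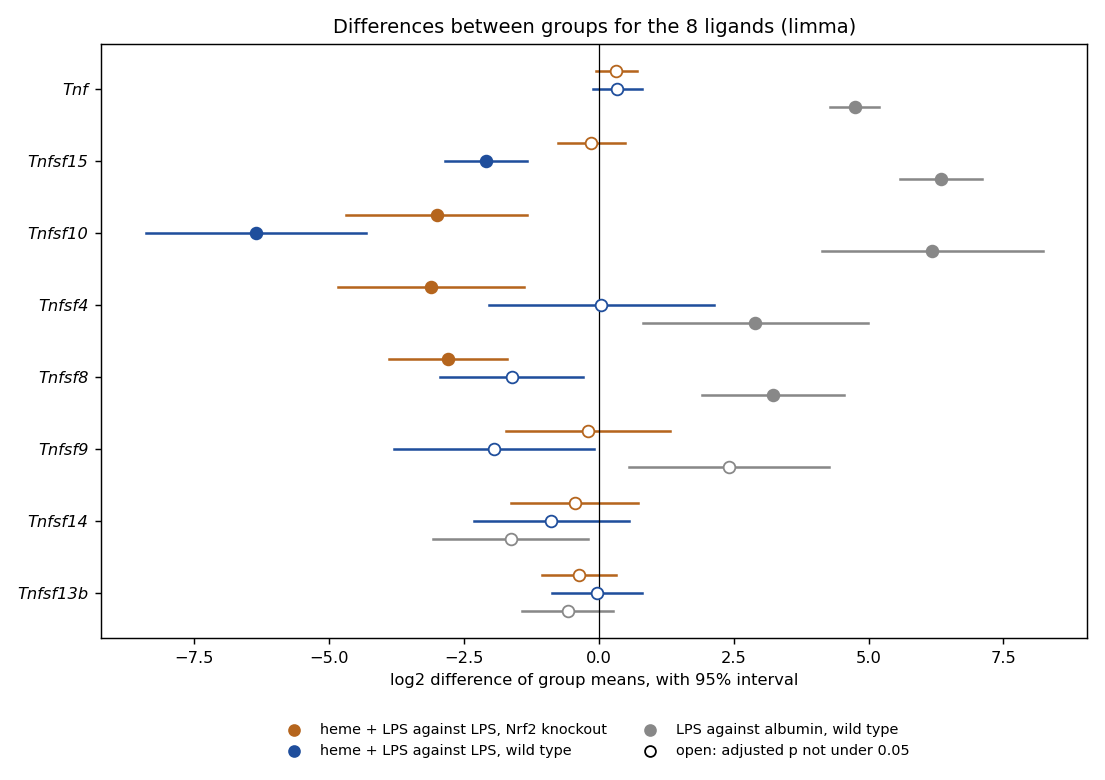
Log2 differences of group means (x axis) with 95% intervals for the 8 ligands in 3 comparisons: heme before LPS in the knockout, heme before LPS in wild type (both against LPS), and LPS against albumin. Filled points passed an adjusted p of 0.05. The wild-type heme interval of Tnfsf15 lies below 0 (-2.86 to -1.34), while its knockout interval spans 0.

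Whether the effect of heme differed between the genotypes was tested by the interaction, the difference in the knockout less the one in wild-type cells. No ligand was called (limma, 0 of 8 at an adjusted p under 0.05, and 3 of 8 at an unadjusted p under 0.05), and over all genes 0.24% were called higher and 0.707% lower. Tnfsf15 came nearest, with an interaction of 1.96 ± 0.46 (unadjusted p = 0.000758, adjusted p = 0.066 in limma). It passed after quantile normalization (adjusted p = 0.0389), with genes at 0 on most arrays left out (0.0425), with array weights (0.0284), without wild-type heme array c (0.0468) and without knockout heme array b (0.00907), all in limma. The interaction of Tnfsf10 was 3.35 ± 1.23 (adjusted p = 0.378 in limma), and it passed with array weights (0.0277) and without wild-type heme array a (0.0347). That of Tnfsf4 was -3.16 ± 1.26 (adjusted p = 0.468 in limma), and that of Tnf was -0.02 with a 95% interval of -0.61 to 0.58. The median over the 8 ligands was 0.21.

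Set directly against wild type, the knockout had higher Tnfsf15 and Tnfsf10 under heme and LPS, and no ligand was called lower. Over all genes 2.13% were called higher and 3.16% lower. Tnfsf15 lay between 4.78 and 6.23 on the 5 knockout arrays, against 3.12 to 4.14 on the 3 wild-type arrays. It was the 1 ligand of the 8 whose arrays did not overlap, which held for 7.79% of genes. The difference was 2.17 ± 0.32, 4.51-fold higher (adjusted p = 0.000792 in limma), and in a fit of these groups alone the adjusted p was 0.0622. Tnfsf10 lay between 1.74 and 4.76 on the knockout arrays, against -1.75 to 2.71 on the wild-type arrays. The groups overlapped, since knockout array b was below wild-type array a. Among arrays of the same letter the knockout was higher in all 3 pairs, by 2.04 for a, 3.49 for b and 3.76 for c. The difference was 3.68 ± 0.85 (adjusted p = 0.0202 in limma), and the call was lost without wild-type heme array b (0.117) or c (0.0945), without knockout heme array d, and in a fit of these groups alone (0.265). Tnfsf4 went the other way, with -1.24 to 1.45 on the knockout arrays and 1.24 to 4.47 on the wild-type arrays, and its difference of -3.03 ± 0.87 did not pass (adjusted p = 0.0617 in limma) but did in 5 of 18 alternatives. The other 5 ligands had adjusted p values between 0.531 and 0.892 in limma, and the median over the 8 was 0.29.

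Under LPS without heme no ligand differed beyond the threshold between knockout and wild type (limma, 0 of 8, with none at an unadjusted p under 0.05). Over all genes 0% were called higher and 0.00445% lower. The differences of Tnf, Tnfsf15 and Tnfsf10 were 0.18, 0.21 and 0.33, with 95% intervals of -0.25 to 0.60, -0.50 to 0.92 and -1.58 to 2.24. The interval of Tnf excludes a 2-fold difference, and that of Tnfsf10 does not. The median over the 8 ligands was 0.19, and the arrays overlapped for each ligand, as for all but 3.02% of genes.

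The order of the group means, given as a description, differed from ligand to ligand. For Tnf the albumin group was lowest and the 4 LPS-treated groups lay between 4.18 and 4.68, with overlapping arrays between each pair of neighbours. For Tnfsf15 the order was wild-type albumin, wild-type heme and LPS, and then the other 3 groups between 5.66 and 5.87, and only these 3 overlapped with their neighbours. For Tnfsf10 the wild-type heme and LPS group and the albumin group overlapped at the bottom, the knockout under heme and LPS had a mean of 3.86 and overlapped with wild type under heme and LPS but with no other group, and both LPS groups overlapped at the top at 6.54 and 6.86. For Tnfsf4 the knockout under heme and LPS was lowest at 0.29, overlapping with albumin at 0.37, and the other 3 groups lay between 3.27 and 3.40.

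A shift common to all genes of an array cancels between 2 genes on it. The ligands were also set against Tnf on the same array, a contrast chosen after the values were seen and given without a test. Tnfsf15 minus Tnf averaged 1.04 ± 0.58 in the knockout under heme and LPS (SD, n = 5) and 1.51 ± 0.47 in the knockout under LPS (SD, n = 4). In wild-type cells it averaged -0.97 ± 0.38 under heme and LPS (SD, n = 3), 1.47 ± 0.57 under LPS (SD, n = 3) and -0.13 ± 0.40 under albumin (SD, n = 3). The wild-type heme and LPS arrays lay between -1.25 and -0.53, below all other LPS-treated arrays, of which the lowest was at 0.25. Tnfsf10 minus Tnf averaged -0.82 ± 1.31 in the knockout under heme and LPS and 2.51 ± 0.54 under LPS, and in wild-type cells -4.34 ± 2.12 under heme and LPS, 2.35 ± 0.22 under LPS and 0.91 ± 0.11 under albumin (SD, with n as above). On every heme array of either genotype this difference was below that of every LPS array of the same genotype.

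**Figure D3:**
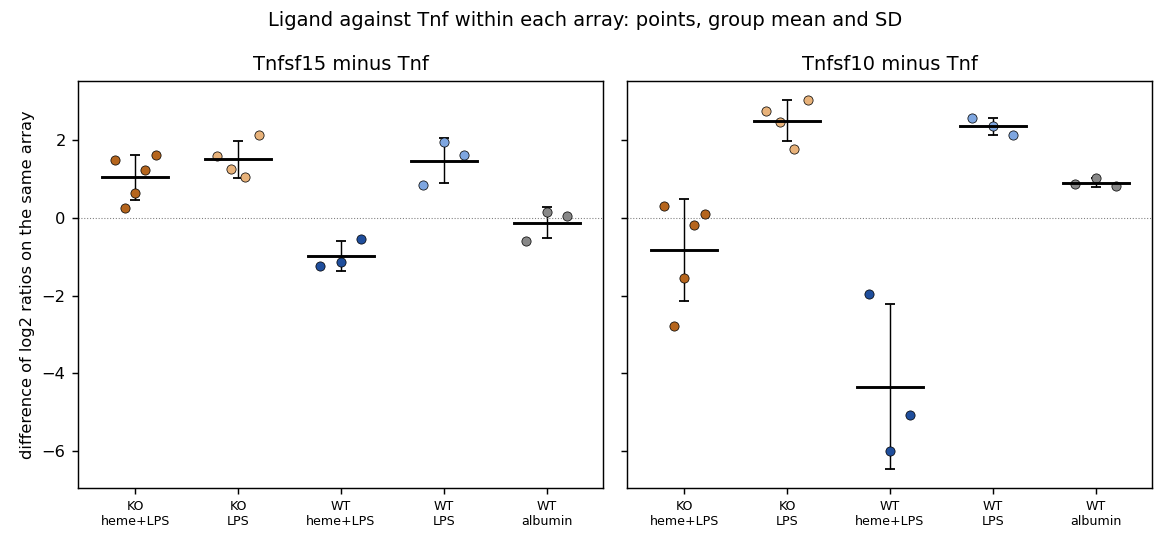
Difference between the log2 ratios of 2 ligands on the same array (y axis), Tnfsf15 minus Tnf on the left and Tnfsf10 minus Tnf on the right, for 18 arrays by group, with mean (line) and SD (bar). The 3 wild-type heme and LPS arrays are below 0 in both panels, and Tnfsf15 minus Tnf is above 0 on all 5 knockout heme and LPS arrays.

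The promoters of the ligands that the comparisons turn on are shown because Tnf, Tnfsf15 and Tnfsf10 rose together under LPS and separated under heme. The sequences are the 250 bases before the annotated start in RefSeq (GRCm38.p6), written 5′ to 3′ along the gene's strand. Capitals mark matches on either strand to the NF-kB pattern GGGNNTTTCC, the IRF patterns GAAANNGAAA and AANNGAAA (which overlap), the AP-1 pattern TGANTCA and the TATA box TATAAA, where N is any base.
Tnf, chr17:35202008-35202257, minus strand: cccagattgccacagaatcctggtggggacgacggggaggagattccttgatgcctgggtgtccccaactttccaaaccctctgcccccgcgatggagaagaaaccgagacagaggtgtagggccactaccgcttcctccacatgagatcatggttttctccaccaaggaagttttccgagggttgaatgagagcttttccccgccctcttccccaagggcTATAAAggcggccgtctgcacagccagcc
Tnfsf15, chr4:63745060-63745309, minus strand: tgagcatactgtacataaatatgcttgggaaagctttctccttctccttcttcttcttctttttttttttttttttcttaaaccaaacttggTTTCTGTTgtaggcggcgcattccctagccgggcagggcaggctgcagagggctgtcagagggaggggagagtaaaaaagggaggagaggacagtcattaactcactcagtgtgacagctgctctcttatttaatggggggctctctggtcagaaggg
Tnfsf10, chr3:27316827-27317076, plus strand: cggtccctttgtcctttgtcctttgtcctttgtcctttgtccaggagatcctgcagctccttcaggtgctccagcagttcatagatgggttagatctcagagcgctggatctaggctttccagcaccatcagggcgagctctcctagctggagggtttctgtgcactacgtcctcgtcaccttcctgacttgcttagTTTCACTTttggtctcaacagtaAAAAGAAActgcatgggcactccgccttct

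In the window of Tnf the one match in capitals is a TATA box at -29 to -24 from the start, a pattern held by 12.4% of 32851 mouse promoter windows of this length. Tnfsf10 held 2 matches to AANNGAAA, the core of the sites bound by interferon regulatory factors, at -53 to -46 on the opposite strand and at -30 to -23. Tnfsf15 held 1, at -158 to -151 on the opposite strand. This pattern is in 21.3% of the windows. Tnfsf10 also held 2 matches to TGANNNNGC, the core of the antioxidant response element, at -195 to -187 and -128 to -120 on the opposite strand, left in lower case since 35.2% of windows hold one. No window of these 3 ligands held GGGNNTTTCC (in 1.41% of windows), GAAANNGAAA (2.98%), TGANTCA (6.75%) or the STAT pattern TTCNNNGAA (7.02%), which says only that these letters are not in these 250 bases. Of the other ligands with a sequence, Tnfsf8 held AANNGAAA at -103 to -96 and Tnfsf14 held TGANTCA at -160 to -154. Of the 2 windows of Tnfsf13b, 1 held GAAANNGAAA at -16 to -7, TGANTCA at -127 to -121 and 3 matches to AANNGAAA. The same Tnfsf13b window also held TGANNNNGC, at -88 to -80 on the opposite strand. The genes themselves lie at chr17:35199367-35202007 (Tnf), chr4:63724600-63745059 (Tnfsf15) and chr3:27317077-27339665 (Tnfsf10), and where in them the array's features lie was not analysed here.

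The genes with the most similar pattern over the 18 arrays were found among 13878 genes that were other than 0 on at least 14 arrays. The correlations are descriptions: arrays of a group share a treatment, and all arrays are set against an untreated reference. Tnf was most like Il1b, the gene of the pyrogenic cytokine interleukin-1 beta (r = 0.988), and Socs3, a feedback inhibitor of cytokine signalling (r = 0.984). Tnfsf15 was most like Il4i1, an amino acid oxidase (r = 0.986), and Gadd45b, a stress-response gene (r = 0.985). Tnfsf10 was most like Ifi208, of the interferon-inducible Ifi200 family (r = 0.989), and Parp9, an interferon-induced gene (r = 0.987). Ifi208 shared the graded pattern of Tnfsf10: it averaged 2.47 ± 1.42 in the knockout under heme and LPS and 4.31 ± 0.49 in the knockout under LPS. In wild-type cells it averaged -0.28 ± 1.59 under heme and LPS, 4.32 ± 0.66 under LPS and -0.15 ± 0.06 under albumin (SD, n = 5, 4, 3, 3 and 3). Il1b stayed like Tnf, at 7.87 ± 0.38 in the knockout under heme and LPS, 7.72 ± 0.30 in the knockout under LPS, 7.50 ± 0.39 in wild type under heme and LPS, 7.65 ± 0.22 in wild type under LPS and 0.38 ± 0.34 under albumin. The nearest genes were Bcl9 (0.856) and Mtm1 (0.828) for Tnfsf4, Exosc9 (0.934) and Luc7l2 (0.931) for Tnfsf8, and Cst7 (0.894) and Fzd7 (0.869) for Tnfsf9. They were Rbm48 (0.930) and Msrb2 (0.929) for Tnfsf14, and Zfp938 (0.852) and Gm6189 (0.835) for Tnfsf13b. Between the ligands r ranged from -0.66 for Tnf with Tnfsf14 to 0.91 for Tnf with Tnfsf15.

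Of the other ligands of the superfamily, 9 of 10 listed were measured. Of these 9, 3 were at exactly 0 on every array of wild type under LPS. The same count held for wild type under heme and LPS and for the knockout under LPS. It was 2 in the knockout under heme and LPS and 1 under albumin. A gene at 0 throughout 2 groups cannot be called between them, and the counts below include such genes. LPS raised 3 of them in wild-type cells and lowered none, against 12.3% and 16.3% of all genes. The 3 were Lta, which encodes lymphotoxin alpha (2.56 ± 0.55, adjusted p = 0.00259), Cd70, the ligand of CD27 (2.45 ± 0.80, adjusted p = 0.0321), and Ltb, which encodes lymphotoxin beta (0.80 ± 0.21, adjusted p = 0.0107), all in limma. The calls of Cd70 and Ltb were lost after quantile normalization (0.239 and 0.0777), and that of Cd70 also without albumin array a or c or LPS array a or c. Tnfsf18, which encodes GITR ligand, and Tnfsf12, which encodes TWEAK, differed by 1.13 and 0.51 and were not called. Under heme none of the 9 was called in wild-type cells (limma, 3 at an unadjusted p under 0.05), against 8.34% of all genes higher and 6.35% lower. Cd70 was at -2.47 (adjusted p = 0.0535) and Tnfsf18 at -1.38 (adjusted p = 0.368), both in limma. Against albumin, heme and LPS raised only Ltb of the 9 in wild type, where 12.9% of all genes were called higher and 14.4% lower. The rise of Ltb was 0.64 (adjusted p = 0.0372 in limma), a call lost in 8 of 16 alternatives.

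In the knockout heme lowered Tnfsf18 and raised Ltb of these 9, with 2.67% of all genes called lower and 4.1% higher. Tnfsf18 stood at -0.14, -3.08, -2.33, -0.98 and -1.05 under heme and LPS, against 3.05, -0.06, 1.02 and 2.43 under LPS. The groups did not overlap and the difference was -3.13 ± 0.67 (adjusted p = 0.0111 in limma, 0.0955 in a fit of these groups alone). Ltb stood at 1.91, 2.10, 1.98, 2.37 and 2.79 in the knockout under heme and LPS, against 1.53, 1.86, 1.31 and 1.503 under LPS. The difference was 0.68 ± 0.17 (adjusted p = 0.0298 in limma), lost in 7 of 19 alternatives. On the wild-type heme and LPS arrays Ltb was at 0.96, 1.07 and 1.46, all below the knockout arrays, and the knockout was 1.07 ± 0.19 higher (adjusted p = 0.00359 in limma, 0.0996 in a fit of these groups alone). Cd70 differed by 2.41 in the same direction and did not pass (adjusted p = 0.0715 in limma). In this comparison 1 of the 9 was called higher and 0 lower, against 2.13% and 3.16% of all genes. None of the 9 was called by limma in the interaction (1 at an unadjusted p under 0.05), where 0.24% of all genes were higher and 0.707% lower. None was called between genotypes under LPS (0 at an unadjusted p under 0.05), beside 0% of all genes higher and 0.00445% lower.

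Of 28 receptors, LPS raised 5 and lowered 4 in wild-type cells, where 12.3% of all genes were called higher and 16.3% lower, and their median difference was -0.12. These counts are near the shares over all genes. Cd40, the co-stimulatory receptor of antigen-presenting cells, rose by 4.13 ± 0.44, Fas, a death receptor, by 3.08 ± 0.42 and Tnfrsf1b, which encodes TNF receptor 2, by 2.47 ± 0.38 (adjusted p = 8.53e-06, 7.32e-05 and 0.000205 in limma). Tnfrsf17, which encodes the BAFF and APRIL receptor BCMA, was lower (-1.53 ± 0.46, adjusted p = 0.0215 in limma), a call lost without LPS array a or b or albumin array c. Tnfrsf9 and Tnfrsf21 differed by 1.19 and -0.93 and were not called.

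Heme raised 2 receptors and lowered 4 in wild-type cells, with 8.34% of all genes called higher and 6.35% lower. The largest difference was in Tnfrsf10b, the death receptor of TRAIL in the mouse, which moved against its ligand Tnfsf10. It stood at 3.15, 2.39 and 2.83 under heme and LPS, against 0.04, -0.24 and -0.12 under LPS, a difference of 2.90 ± 0.24 (adjusted p = 2.46e-06 in limma). Tnfrsf21, which encodes death receptor DR6, stood at 1.26, 0.48 and 0.31 under heme and LPS, against -2.25, -0.94 and -0.64 under LPS, and was 1.96 ± 0.42 higher (adjusted p = 0.00542 in limma, 0.124 in a fit of these groups alone). Cd40 stood at 3.47, 1.86 and 2.75 under heme and LPS, against 4.89, 4.41 and 4.01 under LPS, and was lower (-1.75 ± 0.44, adjusted p = 0.0138 in limma), a call lost without heme array b or LPS array a and in a fit of these groups alone (0.134). Tnfrsf9, which encodes CD137, the receptor of the Tnfsf9 product, was lower too (-1.76 ± 0.48, adjusted p = 0.0227 in limma), but without each array but heme array c in turn the call was lost, with an adjusted p of up to 0.0778. Tnfrsf12a and Tnfrsf14 differed by -1.16 and -0.96 and were not called.

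In the knockout heme raised 2 of the 28 receptors and lowered none, with 4.1% of all genes called higher and 2.67% lower. Tnfrsf10b stood at 1.70, 1.41, 1.21, 1.23 and 1.17 under heme and LPS, against -0.10, 0.17, 0.06 and -0.85 under LPS, a difference of 1.52 ± 0.20 (adjusted p = 0.000354 in limma). Ltbr, the lymphotoxin beta receptor, was 0.45 ± 0.12 higher (adjusted p = 0.0306 in limma), a call lost in 10 of 19 alternatives, after quantile normalization and centring among them. Under heme and LPS the knockout arrays of Tnfrsf10b lay between 1.17 and 1.70, against 2.39 to 3.15 on the wild-type arrays, and the knockout was lower by that test (-1.45 ± 0.21, adjusted p = 0.000866 in limma). The calls of Tnfrsf10b in these 3 comparisons held in every alternative, while its interaction was -1.38 (adjusted p = 0.0548 in limma). Cd40 was 1.51 ± 0.39 higher in the knockout under heme and LPS (adjusted p = 0.0384 in limma) and Tnfrsf21 was lower (-1.48 ± 0.38, adjusted p = 0.0352 in limma). Both calls were fragile: that of Cd40 was lost in 8 of 18 alternatives, and that of Tnfrsf21 in 9, including the replicate block (adjusted p = 0.0929). Of the 28 receptors, 1 was higher and 2 lower in the knockout under heme and LPS, against 2.13% and 3.16% of all genes. No receptor was called by limma in the interaction (4 at an unadjusted p under 0.05), where 0.24% of all genes were higher and 0.707% lower. Nor was any called between genotypes under LPS (1 at an unadjusted p under 0.05), with 0% of all genes higher and 0.00445% lower. Against albumin, heme and LPS raised 4 receptors in wild type and lowered 3 (12.9% and 14.4% of all genes), with Fas at 2.51, Cd40 at 2.38, Tnfrsf10b at 2.23 and Tnfrsf1b at 2.21 as the largest.

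**Figure D4:**
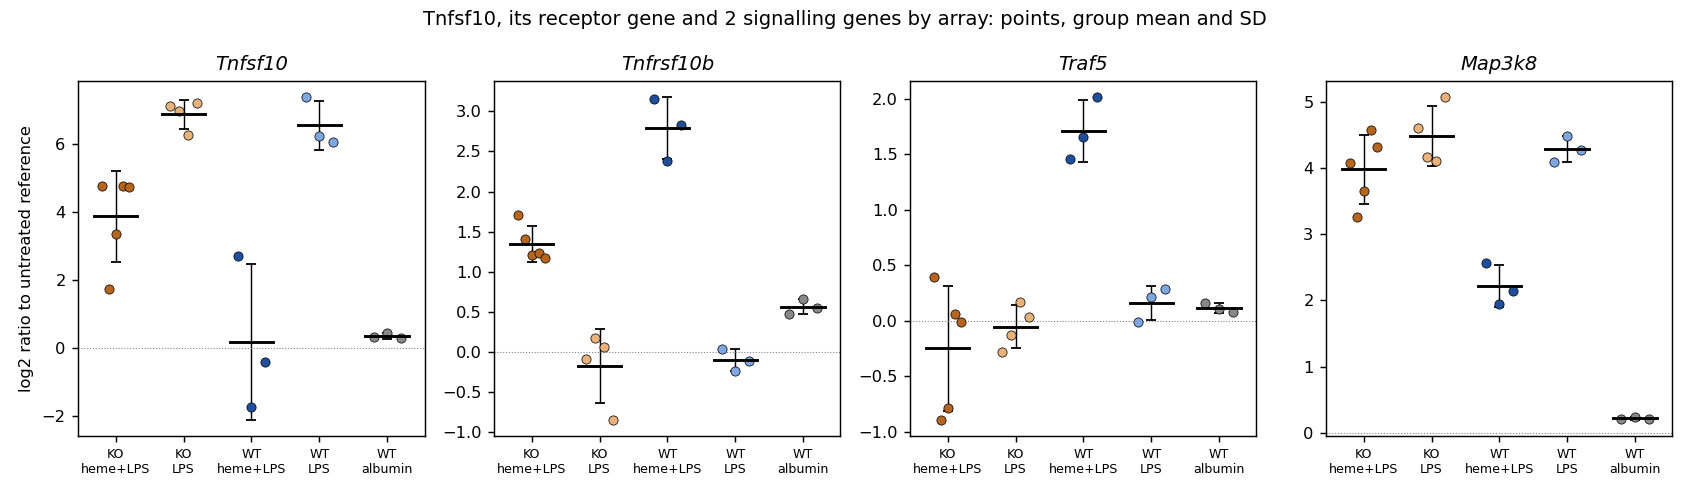
Log2 ratio to the untreated reference (y axis, a scale of its own in each panel) of Tnfsf10, its receptor gene Tnfrsf10b, and the signalling genes Traf5 and Map3k8 on 18 arrays by group, with mean (line) and SD (bar). Tnfrsf10b is highest on the 3 wild-type heme and LPS arrays (2.39 to 3.15), where Tnfsf10 ranges from -1.75 to 2.71.

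Of 22 genes of ligand shedding and receptor signalling, LPS raised 11 and lowered 5 in wild-type cells, against 12.3% and 16.3% of all genes. The largest rises were Tnfaip3, which encodes the NF-kB inhibitor A20 (5.64 ± 0.76), Cflar, which encodes the caspase-8 inhibitor c-FLIP (4.44 ± 0.21), Traf1, an adaptor (4.44 ± 0.52), and Birc3, which encodes the ubiquitin ligase cIAP2 (3.68 ± 0.30), with adjusted p values of at most 6.35e-05 in limma. Adam17, the protease that sheds TNF, and Timp3, its inhibitor, differed by 0.58 and -0.45 and were not called. Heme raised 8 of the 22 and lowered 5 in wild-type cells, against 8.34% and 6.35% of all genes. Map3k14, the kinase NIK of the non-canonical NF-kB pathway, was 1.90 ± 0.24 higher (adjusted p = 8.1e-05 in limma) and Traf5, an adaptor of several receptors, 1.55 ± 0.28 higher (adjusted p = 0.00135 in limma). Casp8, the initiator caspase of death receptors, was lower, with -0.70, -0.51 and -0.83 under heme and LPS against 1.53, 0.96 and 1.02 under LPS (-1.85 ± 0.25, adjusted p = 0.00016 in limma). Birc3 was lower as well (-1.42 ± 0.30, adjusted p = 0.00472 in limma), a call lost after quantile normalization, without the LPS-treated arrays lettered a, and in a fit of these groups alone. Tnfaip3 and Rhbdf2, which encodes iRhom2, a cofactor of TNF shedding, differed by -0.80 and -0.88 and were not called.

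In the knockout heme raised 2 of these 22 genes and lowered 4, against 4.1% and 2.67% of all genes. Birc2, which encodes cIAP1, was lower (-1.16 ± 0.17, adjusted p = 0.000939 in limma), as was Casp8 (-1.15 ± 0.21, adjusted p = 0.00382 in limma, 0.0536 in a fit of these groups alone) and Tab2, an adaptor of the kinase TAK1 (-0.64 ± 0.14, adjusted p = 0.011 in limma). The call of Tab2 was lost after quantile normalization (0.0604) and in a fit of these groups alone (0.0805). Map3k14 was 0.71 ± 0.20 higher (adjusted p = 0.0426 in limma), and the call was lost in 9 of 19 alternatives, including the replicate block (0.60, adjusted p = 0.0551). Traf5 was the one gene of these lists whose interaction passed, at -1.74 ± 0.36 (adjusted p = 0.0328 in limma). The call was lost in 11 of 25 alternatives, including the replicate block (-1.80, adjusted p = 0.0698). Traf5 stood at 0.39, -0.89, -0.79, 0.06 and -0.01 in the knockout under heme and LPS, against 1.46, 1.65 and 2.01 in wild type under heme and LPS, a difference of -1.96 ± 0.25 (adjusted p = 0.000254 in limma). In this comparison 0 of the 22 were higher and 3 lower, against 2.13% and 3.16% of all genes. The others were Map3k7, which encodes TAK1 (-0.79 ± 0.14, adjusted p = 0.00304), and the protease gene Adam10 (-0.55 ± 0.14, adjusted p = 0.0346), both in limma. The call of Adam10 was lost in 11 of 18 alternatives, and those of Traf5 and Map3k7 in a fit of these groups alone (0.0512 and 0.123). In the interaction limma called 0 of the 22 higher and 1 lower, against 0.24% and 0.707% of all genes. Between genotypes under LPS limma called 0 of the 22 (1 at an unadjusted p under 0.05), against 0% of all genes higher and 0.00445% lower. Against albumin, heme and LPS raised 13 and lowered 3 in wild type (12.9% and 14.4% of all genes), with Tnfaip3 at 4.84, Traf1 at 3.73, Cflar at 3.37 and Birc3 at 2.26.

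The last list held 15 genes set under the stability and translation of Tnf mRNA, among them Litaf. Whether each of them acts at that step was not tested. LPS raised 8 and lowered 3 of them in wild-type cells, beside 12.3% and 16.3% of all genes. Zfp36, which encodes tristetraprolin, the protein that marks Tnf mRNA for decay, rose by 2.94 ± 0.28, Zc3h12a, which encodes the RNase Regnase-1, by 3.47 ± 0.70 and Map3k8, which encodes the kinase TPL2 needed for TNF production, by 4.07 ± 0.31 (adjusted p = 3.66e-06, 0.00172 and 4.01e-07 in limma). Zfp36l2, a relative of Zfp36, was lower (-4.21 ± 0.39, adjusted p = 2.17e-06 in limma). Heme raised 2 and lowered 1 of the 15 in wild-type cells, beside 8.34% and 6.35% of all genes. Map3k8 stood at 2.57, 1.95 and 2.14 under heme and LPS, against 4.10, 4.50 and 4.27 under LPS (-2.07 ± 0.31, adjusted p = 0.000329 in limma). Mapk14, which encodes the kinase p38 alpha, was 1.56 ± 0.26 higher (adjusted p = 0.000907 in limma, 0.0846 in a fit of these groups alone), and Elavl1, which encodes the RNA-binding protein HuR, was 1.26 ± 0.24 higher (adjusted p = 0.00197 in limma). Zfp36l2 and Zc3h12a differed by 0.996 and -0.70 and were not called.

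In the knockout heme raised only Mapk14 of the 15, by 0.99 ± 0.22 (adjusted p = 0.0126 in limma), and lowered none, beside 4.1% and 2.67% of all genes. Under heme and LPS Map3k8 was the one gene of the list called between genotypes, beside 2.13% of all genes higher and 3.16% lower. It lay between 3.27 and 4.57 on the knockout arrays, against 1.95 to 2.57 on the wild-type arrays, and was 1.76 ± 0.28 higher in the knockout (adjusted p = 0.00132 in limma, 0.0622 in a fit of these groups alone). Its interaction was 1.56 and did not pass (adjusted p = 0.101 in limma). No gene of the list was called by limma in the interaction (2 at an unadjusted p under 0.05), beside 0.24% of all genes higher and 0.707% lower. Nor was any called between genotypes under LPS (1 at an unadjusted p under 0.05), beside 0% of all genes higher and 0.00445% lower. Against albumin, heme and LPS raised 9 and lowered 2 in wild type (12.9% and 14.4% of all genes).

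Several of the 8 ligands are also made by T cells, dendritic cells or other leukocytes, so the markers of such cells were followed. Under heme limma called none of 10 T and NK cell markers, 8 dendritic cell markers, 4 B cell markers and 5 mast cell and basophil markers in either genotype (also 0 at an unadjusted p under 0.05). In each LPS group 1 T and NK, 1 dendritic and 1 B cell marker were at exactly 0 on every array. So were 1 mast cell and basophil marker in wild type and 2 in the knockout. A marker at 0 throughout both groups cannot be called, so the absence of calls says little about these cells. Of 8 neutrophil markers heme raised 1 in the knockout and 2 in wild type, where 4.1% and 8.34% of all genes were called higher. The median neutrophil marker lay between 0.15 and 1.18 on the knockout heme and LPS arrays, against 0 to 0.46 on the knockout LPS arrays. In wild type it lay between 0.62 and 1.12 under heme and LPS, against 0.03 to 0.95 under LPS. Of 9 macrophage markers heme lowered 1 in the knockout and 2 in wild type, where 2.67% and 6.35% of all genes were called lower. The median macrophage marker lay between -0.69 and 0.18 on the wild-type heme and LPS arrays, against 0.03 to 0.54 on the wild-type LPS arrays. Under LPS against albumin the markers called higher were 3 of 9 macrophage and 2 of 10 T and NK cell markers. So were 1 of 8 dendritic cell and 1 of 8 neutrophil markers, while 1 of 4 B cell and 1 of 8 neutrophil markers were lower. Over all genes 12.3% were called higher and 16.3% lower. The part of these cells in the values of the ligands was not tested.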

How the data were processed

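Per the labels, RNA of treated macrophages (Cy5, 500 ng labelled) was hybridised against untreated macrophages (Cy3). The deposited values come from Agilent Feature Extraction 10.5.1.1, per the submitters' processing notes, and were taken here as log10 ratios of sample over reference. The log10 scale and direction were read from the form of the values and the dye labels. The sources used here do not give the background and dye correction, the genotype of the reference, the meaning of an exact 0, or whether LPS cells had albumin first. Signal over background is unknown, so the precision rests on the spread between arrays, as moderated by limma, and on their number.

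Values were multiplied by log2(10) and averaged over the features of a gene (33026 of 44397 features carried 1 symbol, and 11371 several or none). Group means were fitted over all 18 arrays with limma 3.58.1 (lmFit, contrasts.fit, eBayes) in R 4.3.3, with 7 two-sided comparisons and Benjamini-Hochberg adjustment over 22485 genes. The code was tested on simulated data. Figures used matplotlib 3.10.9 in Python 3.11.15. The design text speaks of independent biological replicates. No 2 arrays held identical values.

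Named are all 8 ligands, Nfe2l2 with Nqo1 as a check of the labels, per list and comparison up to 4 called and 2 uncalled genes by size of difference, and per ligand the 2 most similar genes. Some genes that this rule takes are given by count only. The ligands and lists were chosen with earlier results of these data known. Listed genes without a matching symbol, such as Tnfsf13, Ripk1 and Traf3, were not analysed here.

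Replicate letters are shared between groups. Same-lettered arrays deviated together, with r over 0.1 in every pair, for knockout heme and LPS against knockout LPS (0.216 to 0.586, 4 pairs), for knockout against wild type under LPS (0.196 to 0.579, 3 pairs) and under heme and LPS (0.228 to 0.533, 3 pairs), so there the letter was taken to pair arrays, as a reading of the data. It did not for wild-type heme and LPS against LPS (1 of 3 pairs) or for albumin (0 of 3). Alternatives were another normalization, centring, probe summary, treatment of zeros, sets of groups, eBayes options, array weights, the letter as a block, and each array left out.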

Additional observations from a re-analysis of the deposited data

Results flagged for a closer look

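The effect of heme on Traf5, an adaptor of TNF receptors, differed between the genotypes by the test of the difference itself: the interaction, knockout minus wild type, was -1.74 ± 0.36 on the log2 scale (adjusted p = 0.0328 in limma). It passed in 14 of 25 alternatives, with an adjusted p of up to 0.101 without wild-type heme and LPS array c. It was lost after quantile normalization, with the replicate block, in a fit of its 4 groups alone, and without wild-type heme array b or c, any single wild-type LPS array, or knockout LPS array b, c or d.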

How the results depend on the processing

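Over 10 alternative settings and the removal of each array in turn, 905 of the values of the 8 ligands kept their direction and their side of the threshold, 35 lost a call, 35 gained one and 41 changed sign, none of the last at a called value. The cause was not tested. Of the ligands, limma called 1 in place of 2 for heme in wild type in a fit of the 2 groups alone and 5 with array weights; for heme in the knockout it called 0 in place of 3, and between genotypes under heme and LPS 0 in place of 2, both in a fit of the groups alone. In the interaction it called 1 in place of 0 after quantile normalization and with genes at 0 on most arrays left out, and 2 with array weights. Without single arrays the counts were 2 to 4 for heme and LPS against albumin (2 without wild-type heme array c), 1 to 3 for heme in the knockout, 0 to 1 for the interaction and 1 to 3 between genotypes under heme and LPS. The replicate block changed no ligand's call where letters paired arrays; elsewhere it called Tnfsf9 (adjusted p = 0.0214) and Tnfsf14 (0.0474) under LPS against albumin, and Tnfsf8 for heme in wild type (0.0354) and against albumin (0.0217).

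Signs that turned, on the log2 scale, were Tnfsf9 for heme and LPS against albumin (-0.03, array weights) and for heme in the knockout (0.34, without the LPS-treated arrays lettered a; -0.81 to 0.32 without single arrays); Tnfsf15 for heme in the knockout (0.33, quantile; -0.26 to 0.098); and the interaction of Tnf (0.0019, replicate block; -0.32 to 0.15). Between genotypes under LPS they were Tnfsf4 (-0.84 array weights, -0.24 replicate block, -0.19 without arrays lettered a; -0.42 to 0.72), Tnfsf8 (-0.11, array weights), Tnfsf14 (-0.21, array weights; -0.068 to 0.56) and Tnfsf13b (-0.14 to 0.41). Under heme and LPS they were Tnf (-0.32, quantile), Tnfsf9 (-0.013, replicate block) and Tnfsf13b (0.43, array weights; -0.68 to 0.10). Without single arrays the range also spanned 0 for Tnfsf4 (-0.53 to 1.09) and Tnfsf13b (-0.32 to 0.46) for heme in wild type, Tnfsf10 for heme and LPS against albumin (-1.43 to 0.80), and the interaction of Tnfsf14 (-0.031 to 0.94).

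Over all genes, a fit of the groups alone called 1545 in place of 3303 for heme in wild type, 752 in place of 1523 for heme in the knockout, 116 in place of 213 in the interaction and 317 in place of 1189 between genotypes under heme and LPS. Array weights called 5340, 879 and 2124 in place of 3303, 213 and 1189. Without the arrays lettered a 6 in place of 1 were called between genotypes under LPS, 3 without wild-type LPS array a and 2 without array b, and 0 with the block or the groups alone. Without single arrays the interaction count reached 135 (wild-type LPS array b), 140 (wild-type heme array c) and 323 (knockout heme array b), and heme in the knockout 951 (knockout LPS array a).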
